A study of Mus musculus with 6 samples.

Results

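The nuclear-encoded genes of the mitochondrial respiratory chain were followed through the beta, delta and transdifferentiated cells of mouse islets. Members were all gene symbols that start with Nduf, Uqcr, Cox4, Cox5, Cox6, Cox7, Cox8 or Atp5, together with Sdha, Sdhb, Sdhc, Sdhd, Cyc1 and Cycs, without the symbols marked -ps. This rule uses symbols and no measured value, although the gene family was picked for description with earlier results of these data known. The rule gave 94 of the 46959 symbols in the deposited table, of which 43 belong to complex I, 4 to complex II, 9 to complex III, 1 is cytochrome c, 20 belong to complex IV and 17 to ATP synthase. The complex I genes include 7 assembly factors, and Ndufa4 and Ndufa4l2 were counted with complex IV. Atp5s and Atp5sl were counted with ATP synthase by their symbols.

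The series holds 6 RNA-seq libraries from adult triple transgenic mice that carry mIns1-H2b-mCherry, in which an insulin gene promoter marks the nuclei of beta cells, together with Sst-cre and a floxed YFP allele, which label cells of the delta lineage for life. All 3 groups carry the same 3 alleles: beta cells (mCherry), delta cells (YFP) and transdifferentiated cells, which were sorted for both labels. Material from 10 to 12 animals of one sex went into each pool, so that each group has 1 library from a male pool and 1 from a female pool, and the 3 populations were sorted from the same islets after overnight culture in 5.5 mM glucose. One sentence of the design text names alpha cells and another bitransgenic females, while the title, the Cre line and the sample labels give delta cells and both sexes, which were followed here. Each group has 2 libraries, so p-values measure the spread between pools, and in sorted bulk cells fewer cells of a type and less RNA per cell cannot be told apart.

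The respiratory chain oxidises NADH at complex I and succinate at complex II, and hands the electrons by way of coenzyme Q, complex III and cytochrome c to complex IV, which reduces oxygen. Complexes I, III and IV pump protons across the inner mitochondrial membrane, and ATP synthase uses the gradient to make ATP. In beta cells the ATP made from glucose closes potassium channels of the plasma membrane, which opens calcium channels and releases insulin, so that the chain is part of the glucose sensor of these cells. Several subunits of complex IV exist as pairs, with one isoform in most tissues and another best known from striated muscle, testis or lung; Cox6a1 and Cox6a2 are such a pair, and Cox6a2 is the isoform of heart and skeletal muscle.

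Because Cox6a1 and Cox6a2 behaved differently in these libraries, the end of both coding sequences is shown, with the bases that differ in capitals. Both stretches end with the stop codon and were read from the GENCODE M21 transcripts of GRCm38.
Cox6a1, coding bases 205 to 339: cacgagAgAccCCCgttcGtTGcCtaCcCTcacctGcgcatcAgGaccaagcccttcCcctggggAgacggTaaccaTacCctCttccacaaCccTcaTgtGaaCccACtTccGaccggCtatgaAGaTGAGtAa
Cox6a2, coding bases 160 to 294: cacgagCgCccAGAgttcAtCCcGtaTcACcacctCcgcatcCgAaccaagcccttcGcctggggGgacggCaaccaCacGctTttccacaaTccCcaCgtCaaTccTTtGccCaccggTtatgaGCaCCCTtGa
Over these 135 bases 97 were identical and 38 differed, and the longest identical run was 12 bases. The whole coding sequences were 64.85% identical over 293 aligned bases. No stretch of 50 bases that Cox6a2 shared with another gene was shared with a pseudogene, and 3.33% of its 50-base stretches were shared with any other gene.

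Promoters are shown for the members whose 250 bases before the start site hold GCATGCGC or its reverse complement GCGCATGC. These are the core letters bound by NRF1, a transcription factor known for activating respiratory chain genes. A promoter entry was found for 74 of the 94 members, and 10 of these 74 (13.51%) held the letters on either strand, against 4.79% of 9284 promoters of genes tested here and 2.32% of 27025 promoters in all. Each line gives 40 bases from RefSeq (GRCm38.p6), read 5′ to 3′ on the gene's strand, with the matching letters in capitals. Where 10 letters are in capitals, the motif and its reverse complement overlap.
Atp5g2, chr15:102671065-102671104, minus strand: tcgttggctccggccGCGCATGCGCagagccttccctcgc
Atp5k, chr5:108434425-108434464, minus strand: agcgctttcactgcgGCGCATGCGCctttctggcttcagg
Atp5l, chr9:44920953-44920992, minus strand: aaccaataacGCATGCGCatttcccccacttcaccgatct
Cox6a1, chr5:115349096-115349135, minus strand: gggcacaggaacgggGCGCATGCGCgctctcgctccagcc
Cycs, chr6:50566606-50566645, minus strand: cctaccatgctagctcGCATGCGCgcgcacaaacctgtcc
Ndufa11, chr17:56717687-56717726, plus strand: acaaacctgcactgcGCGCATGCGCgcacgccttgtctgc
Ndufa6, chr15:82354351-82354390, minus strand: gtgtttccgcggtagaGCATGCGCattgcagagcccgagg
Ndufa8, chr2:36049339-36049378, minus strand: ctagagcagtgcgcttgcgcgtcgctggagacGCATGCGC
Ndufaf4, chr4:24897955-24897994, plus strand: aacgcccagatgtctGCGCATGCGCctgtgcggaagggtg
Sdhb, chr4:140961201-140961240, plus strand: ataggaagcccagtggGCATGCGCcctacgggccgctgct
The letters were found in 4 of 30 members called higher in beta than in delta cells (13.33%) and in 5 of 40 other members tested (12.5%). The GC box letters GGGCGG (reverse complement CCGCCC) occurred in 28 of 74 member promoters (37.84%), against 60.44% of promoters of genes tested. CCGGAAGT (reverse complement ACTTCCGG, bound by ETS factors such as GABPA) occurred in 3 and TCAAGGTCA (reverse complement TGACCTTGA, bound by estrogen-related receptors) in 1 of 74. AAGATGGC (reverse complement GCCATCTT, bound by YY1) and TAATTA (its own reverse complement, a homeodomain core) occurred in 0 of 74. Among promoters of genes tested the shares were 6.25%, 0.25%, 2.18% and 2.19% in the same order. A match describes the letters in this window only.

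Values are RPKM, reads scaled to exon length and to the reads of the library, and 1 read over 1 kilobase was worth 0.0464 to 0.0917 RPKM. From the steps between low values, the reads behind each library were estimated at 21.6 and 20.5 M reads in beta, 12.5 and 10.9 M reads in transdifferentiated and 17.0 and 15.7 M reads in delta cells (male and female pool). Genes that reached 1 RPKM in 2 or more libraries were compared with limma on log2(RPKM + 1) in one fit over the 6 libraries, and a gene was called where the 2-sided p, adjusted by Benjamini-Hochberg over the 13022 genes tested, was under 0.05. Fold changes are on that log2 scale with their standard error, which understates changes of low genes. The sorted populations carried their own defining markers: the 6 beta markers summed to 221763 to 310113 RPKM in beta, 86384 to 94327 in transdifferentiated and 1434 to 1760 in delta cells, and the 4 delta markers to 79.6 to 96.5, 13497 to 13581 and 51759 to 60657. Delta libraries also carried the most RNA of the 6 alpha markers (15150 to 16521 RPKM, against 461 to 644 in beta and 1800 to 2594 in transdifferentiated cells) and of Ppy and Pyy, the PP cell hormones (36498 to 37076, against 558 to 802 and 11877 to 12041). In beta against delta cells 6 of 6 alpha and 2 of 2 PP markers were called lower. The 6 acinar markers summed to 253 to 6630 RPKM in beta, 61.2 to 1753 in transdifferentiated and 268 to 479 in delta cells, each time with the male pool highest, and 0 of 6 were called. Of the 6 macrophage markers 4 were tested. In beta against delta cells Cd68 (log2 fold change 1.21), C1qb (3.5) and Lyz2 (2.97) were called higher and C1qa (-0.83) lower, and in transdifferentiated against beta cells the first 3 were called lower (-1.14, -3.0 and -2.87). Lyz2 was at 5.82 and 7.99 RPKM in beta and at 0 in both delta libraries. C1qb and Lyz2 passed the filter through the beta libraries only. Of the macrophage markers not tested, Adgre1 was at 0.872 and 1.25 RPKM in beta and at 0 in both delta libraries. Ptprc, the pan-leukocyte marker, was at 0.0608 and 0.158 RPKM in beta and at 0.0032 and 0 in delta cells. Of 5 ductal markers 4 were tested, 1 was called higher in beta than in delta cells (Krt7, 1.11) and 2 lower. The part of alpha, PP, acinar, macrophage and ductal cell RNA in the results that follow was not tested, nor was that of delta cell RNA in the transdifferentiated libraries.

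The 94 genes together were at 5928 and 5184 RPKM in beta (male and female pool), 3840 and 4036 in transdifferentiated, and 3996 and 4226 in delta cells. Both beta libraries were thus above all 4 others, and the transdifferentiated libraries lay in the range of the delta libraries or below it. The order was not the same when set against each library's own total. The members made up 1.01% and 1.07% of the summed RPKM in beta, 1.005% and 1.031% in transdifferentiated and 1.08% and 1.11% in delta cells. The hormone genes Ins1, Ins2, Iapp, Sst, Gcg, Ppy and Pyy took 60.4% and 53.1% of the summed RPKM in beta, 37.0% and 38.3% in transdifferentiated and 33.3% and 35.2% in delta cells. Of what remained after these 7 genes, the members held 2.55% and 2.27% in beta, 1.59% and 1.67% in transdifferentiated and 1.62% and 1.72% in delta cells.

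**Figure D1:**
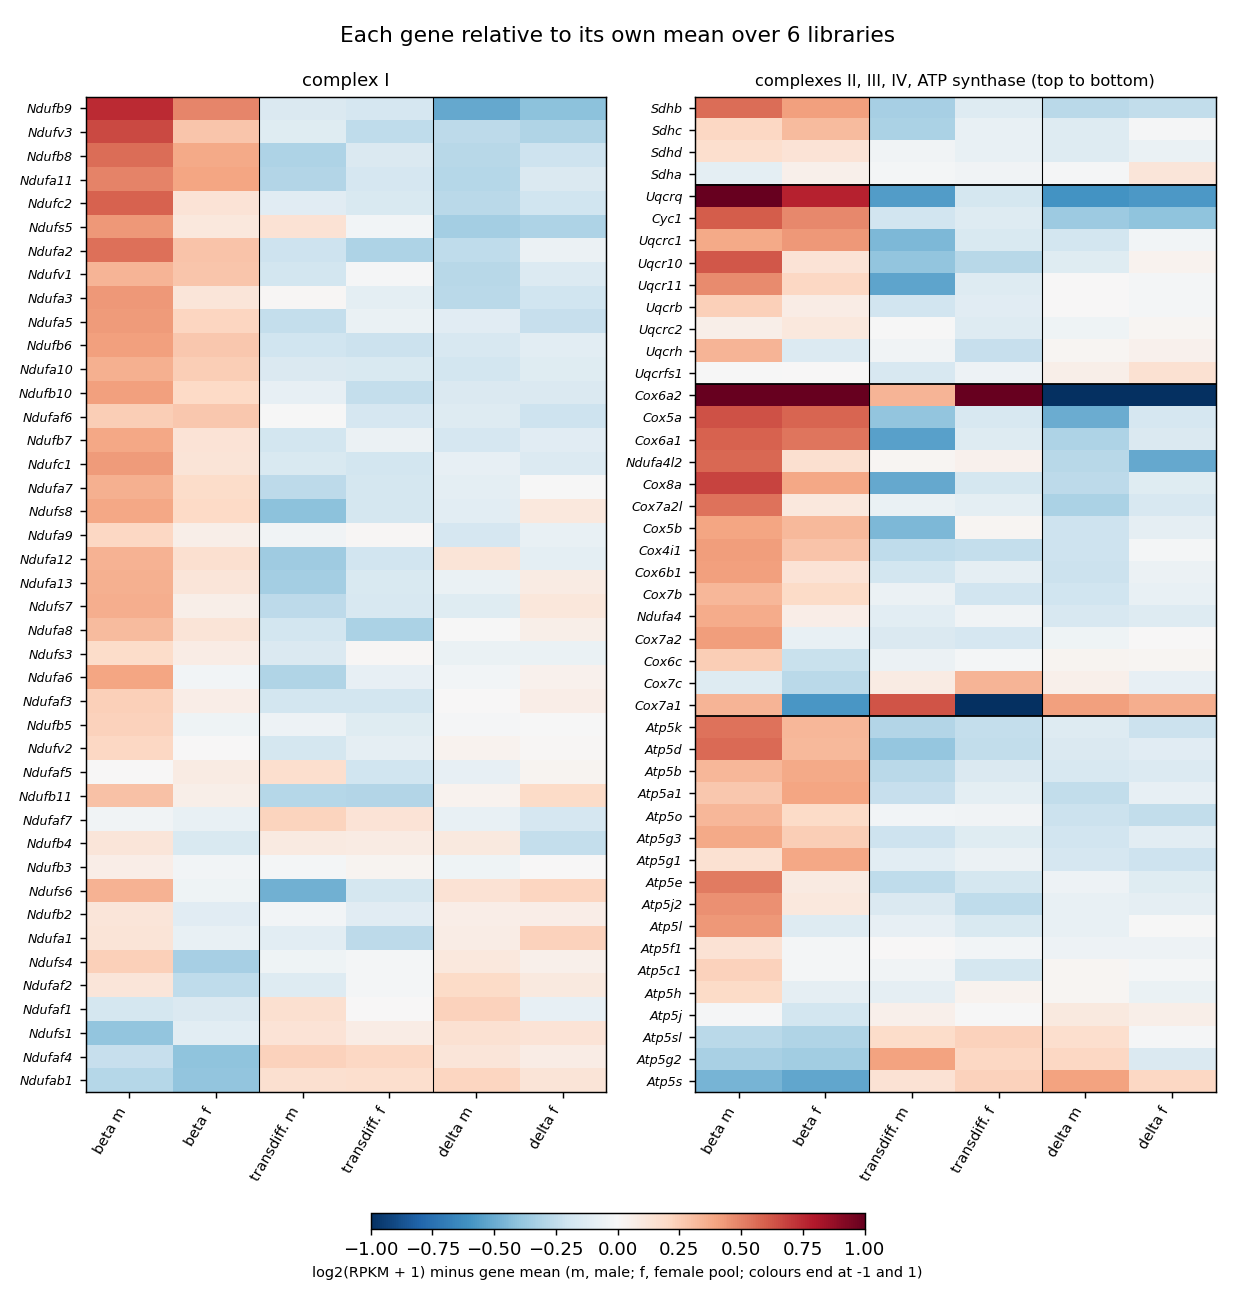
Rows are the 88 respiratory chain genes tested, 1 of them not shown, and columns the 6 libraries (m, male pool; f, female pool). Colour is log2(RPKM + 1) minus the gene's own mean over the libraries, ending at -1 and 1, so that Cox6a2, Cox7a1 and Uqcrq run past the ends. Most rows are red in both beta libraries, while a few at the foot of complex I and of ATP synthase, such as Ndufab1 and Atp5s, are blue there.

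Between beta and delta cells, more members of the chain were called higher in beta cells than lower. Of the 88 members that passed the filter, 40 were called higher in beta cells (45.5%) and 5 lower (5.68%), against 11.7% and 46.3% of all 13022 genes tested. The median log2 fold change was 0.33 over the members and -0.36 over all genes tested. The other 6 members, Cycs, Cox4i2, Cox6b2, Cox7b2, Cox8b and Cox8c, were too low to be tested. The direction of the counts depended on how libraries were scaled: with every library brought to an equal summed RPKM, a choice made after the data were seen, 5 members were called higher and 23 lower. Without either delta library fewer members, and fewer of all genes, were called. The median log2 fold change was then 0.31 over the members and -0.34 over all genes without the male library. Without the female one it was 0.36 and -0.38.

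Cox6a2 (chr7:128205435-128206387 in GRCm38, minus strand, 3 exons) had the largest difference of all members. Its level was 75.8 and 81.5 RPKM in beta (male and female pool), 20.2 and 33.5 in transdifferentiated, and 0.607 and 1.97 in delta cells. The 3 groups did not overlap, and the transdifferentiated libraries lay between the others. The reads behind these values were estimated at 1111 and 1134, 172 and 248, and 7 and 21. The mean of the beta libraries was 61.0 times that of the delta libraries, and the log2 fold change was 5.19 ± 0.33 (SE, n = 2 libraries a group, limma adjusted p = 5.42e-05). The ratio was 125 in the male and 41.4 in the female pool. Cox6a2 was called under every one of the 14 alternatives tried for this comparison.

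Cox6a1, the isoform of most tissues, was the more abundant of the pair in every library. It was at 220 and 212 RPKM in beta, 99.6 and 134 in transdifferentiated and 117 and 132 in delta cells. Beta cells were above both other groups, which overlapped. The log2 fold change of beta against delta cells was 0.79 ± 0.16 (SE, n = 2, limma adjusted p = 0.00538), and 0.28 (adjusted p = 0.196) with equal summed RPKM. Cox6a2 gave 25.6% and 27.8% of the RPKM of the pair in beta, 16.9% and 20.0% in transdifferentiated and 0.514% and 1.47% in delta cells. This share does not depend on the scaling between libraries, and its groups did not overlap. Of 8 striated muscle markers 2 were tested and 1, Acta1, was called higher in beta than in delta cells (log2 fold change 0.50, limma adjusted p = 0.0187). The 8 summed to 4.15 to 8.43 RPKM in beta, 5.05 to 6.18 in transdifferentiated and 2.67 to 3.76 in delta cells. Tnnt3 was at 0 in every library and Ckm at most at 0.104 RPKM. Their part in the level of Cox6a2 was not tested.

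**Figure D2:**
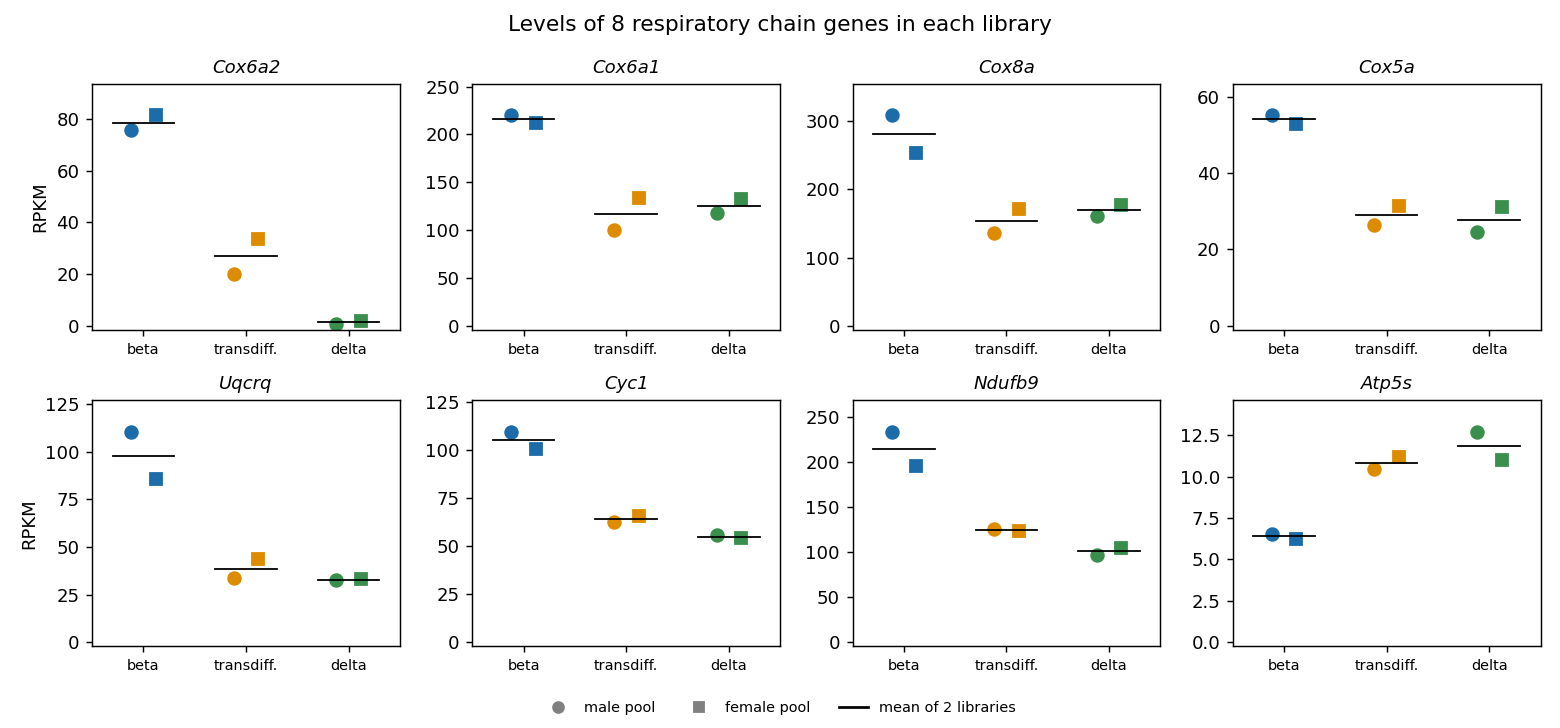
Each panel gives the RPKM of 1 gene in the beta, transdifferentiated and delta libraries, with circles for male pools, squares for female pools and a line at the mean of the 2 libraries. Cox6a2 falls from 75.8 and 81.5 RPKM in beta to under 2 in delta cells with transdifferentiated cells between, the next 6 genes are highest in beta cells, and Atp5s is lowest in beta cells.

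Among the other pairs of complex IV, the common isoform made up nearly all of the RPKM in all 6 libraries. In the library where each was lowest, Cox4i1 held 99.57% of its pair with Cox4i2, a lung isoform, and Cox8a, the smallest subunit of the complex, 99.80% of its set with Cox8b and Cox8c. Cox6b1, which sits where 2 complexes IV meet in a dimer, held at the lowest 99.57% of its pair with the testis isoform Cox6b2, and Cox7b 99.67% with Cox7b2. Cox7a2 held 95.2% to 99.2% against Cox7a1, a muscle isoform, and Ndufa4 97.96% to 99.5% against Ndufa4l2. In the 3 genes of the c ring of ATP synthase, Atp5g3 held 94.4% to 96.5%. Among the sets examined, the second isoform had its largest share of the sum in Cox6a1 and Cox6a2, in beta and transdifferentiated cells. The shares within the c ring set are uncertain. Of the 50-base stretches of Atp5g1 11.1%, and of those of Atp5g2 38.35%, occur in other genes.

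In complex IV, 11 of the 15 members tested were called higher in beta than in delta cells and 0 lower. Cox5a, a structural subunit of the complex, was at 55.2 and 53.0 RPKM in beta, 26.5 and 31.4 in transdifferentiated and 24.6 and 31.1 in delta cells. The mean of the beta libraries was 1.94 times that of the delta libraries, the other groups overlapped, and the log2 fold change of beta against delta cells was 0.94 ± 0.15 (SE, n = 2, limma adjusted p = 0.0019). Cox8a was at 309 and 253 RPKM in beta, 135 and 171 in transdifferentiated and 161 and 178 in delta cells, with a log2 fold change of 0.72 ± 0.16 (limma adjusted p = 0.00808). Cox6b1 had the highest mean of the complex, at 280 and 232 RPKM in beta, 185 and 198 in transdifferentiated and 181 and 202 in delta cells. Its log2 fold change was 0.41 ± 0.13 (limma adjusted p = 0.0328), and it turned to -0.10 with equal summed RPKM. Cox4i1 was at 128 and 117 RPKM in beta, 80.1 and 81.1 in transdifferentiated and 82.8 and 94.4 in delta cells, and its log2 fold change was 0.47 ± 0.11 (limma adjusted p = 0.0124). It turned to -0.05 with equal summed RPKM, where Cox5a (0.44, adjusted p = 0.06) and Cox8a (0.21, adjusted p = 0.261) did not pass the test. Without the male delta library Cox8a, Cox4i1 and Cox6b1 had adjusted p = 0.0607, 0.118 and 0.198, and Cox6b1 passed without 1 other library only, the female beta one (0.0592 to 0.0849 without each of the rest).

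The remaining isoforms of complex IV were low. Ndufa4l2, a paralogue of Ndufa4 induced by low oxygen in other cells, was at 1.69 and 1.02 RPKM in beta, 0.831 and 0.860 in transdifferentiated and 0.491 and 0.266 in delta cells. These levels rest on an estimated 4.6 to 39.9 reads. Ndufa4l2 reached 1 RPKM in the beta libraries only. It passed the filter through the group where it is high, so its call is not independent of the filter. Its groups did not overlap, and the log2 fold change of beta against delta cells was 0.76 ± 0.18 (SE, n = 2, limma adjusted p = 0.011), with adjusted p = 0.073 without the male beta library and 0.055 without the female delta library. Cox7a1 was above the female pool in the male pool of beta and of transdifferentiated cells, at 3.95 and 1.61 RPKM in beta, 5.04 and 0.756 in transdifferentiated and 4.21 and 4.03 in delta cells. Its reads were estimated at 4.4 to 45.6. Cox7a2l, a factor that joins complexes III and IV into supercomplexes, was at 75.4 and 55.1, 48.8 and 47.7, and 40.9 and 45.9 RPKM in the same order, and was called higher in beta than in delta cells (log2 fold change 0.56 ± 0.16, limma adjusted p = 0.0222). Without the male and the female delta library its adjusted p was 0.133 and 0.0585, and with equal summed RPKM its log2 fold change was 0.06. Cox8c was at 0 in all 6 libraries, and Cox8b was above 0 only in the male delta library, at 0.326 RPKM.

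In complex III, 3 of 9 subunits were called higher in beta than in delta cells and 0 lower. Uqcrq (chr11:53427922-53430831, minus strand), a small subunit near the site where ubiquinone is bound, was at 111 and 85.5 RPKM in beta, 33.5 and 43.9 in transdifferentiated and 32.5 and 33.1 in delta cells. Both beta libraries were far above the other 4, and the transdifferentiated libraries were above the delta libraries by less than the test could call. The log2 fold change of beta against delta cells was 1.54 ± 0.17 (SE, n = 2, limma adjusted p = 0.000514). Cyc1 (chr15:76343523-76346260, plus strand), cytochrome c1, which passes electrons to cytochrome c, was at 109 and 100 RPKM in beta, 62.7 and 65.6 in transdifferentiated and 55.5 and 54.2 in delta cells. Its 3 groups did not overlap, and the log2 fold change was 0.92 ± 0.10 (limma adjusted p = 0.000505). Both genes share no 50-base stretch with another gene and were called in this comparison under all 14 alternatives. Uqcr10, the most abundant member of the complex, was at 132 and 94.3 RPKM in beta, 65.0 and 70.4 in transdifferentiated and 78.7 and 88.0 in delta cells, and did not pass the test against delta cells (log2 fold change 0.42 ± 0.17, adjusted p = 0.0733).

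In complex I, 18 of 43 members were called higher in beta than in delta cells and 3 lower, with 15 of the 18 among the 29 accessory subunits, 2 among the 7 core subunits and 1 among the 7 assembly factors. Ndufb9 (chr15:58933756-58939488, plus strand), an accessory subunit of the membrane arm, was at 234 and 196 RPKM in beta, 126 and 124 in transdifferentiated and 97.2 and 105 in delta cells. Its groups did not overlap, the log2 fold change was 1.08 ± 0.12 (SE, n = 2, limma adjusted p = 0.000521), and the call held under all 14 alternatives. Ndufa1, the member of complex I with the highest mean, was at 160 and 140, 136 and 122, and 155 and 172 RPKM in the same order, with a log2 fold change of -0.13 ± 0.13 that did not pass the test (limma adjusted p = 0.416).

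The 3 members of complex I called lower in beta cells were low in RPKM. Ndufab1, the acyl carrier protein of mitochondria that is also a subunit of complex I, was at 1.68 and 1.47 RPKM in beta, 2.63 and 2.67 in transdifferentiated and 2.78 and 2.57 in delta cells. The beta libraries were below the other 4, with a log2 fold change against delta cells of -0.51 ± 0.12 (SE, n = 2, limma adjusted p = 0.00988). Ndufaf4, an assembly factor, was at 4.86 and 4.21, 7.07 and 6.96, and 6.51 and 6.26 RPKM, with a log2 fold change of -0.42 ± 0.11 (limma adjusted p = 0.0181). Ndufs1, the core subunit with several iron-sulphur clusters, was at 9.39 and 11.7, 14.0 and 13.3, and 14.2 and 14.0 RPKM, with a log2 fold change of -0.39 ± 0.13 (limma adjusted p = 0.0355). It was not low in reads, which were estimated at 1174 to 1942 over an exon length of 8086 bases. With libraries scaled by the median of ratios, none of these 3 passed the test: their log2 fold changes were -0.23, -0.06 and 0.01. Without the male delta library their adjusted p was 0.0701, 0.12 and 0.159, that of Ndufaf4 was 0.0856 without the female delta library, and Ndufs1 passed the test only when the female beta library was the one left out. Ndufab1 shares 9.27% of its 50-base stretches with other genes, 5 pseudogenes among them, so that its level is uncertain.

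Of the 4 subunits of complex II, 1 was called higher in beta than in delta cells and 0 lower. With the pool as a replicate block 2 were called higher, the second being Sdhc, a membrane anchor (log2 fold change 0.34, adjusted p = 0.0303 with the block and 0.054 without it). The first was Sdhb, the iron-sulphur subunit, which was chosen for naming after its values were seen, at 58.5 and 52.9 RPKM in beta, 31.3 and 36.1 in transdifferentiated and 32.6 and 33.2 in delta cells (log2 fold change 0.74 ± 0.12, limma adjusted p = 0.0021, and 0.24, adjusted p = 0.226, with equal summed RPKM). Sdhd, the other membrane anchor and the member with the highest mean, was at 91.4 and 89.1, 79.2 and 77.1, and 74.0 and 77.2 RPKM, and its log2 fold change of 0.25 ± 0.10 did not pass the test (limma adjusted p = 0.0638). Cycs, cytochrome c, was listed at 0.599 and 0.460 RPKM in beta, 0.516 and 0.728 in transdifferentiated and 0.779 and 0.749 in delta cells, and was too low to be tested. These levels rest on an estimated 22 to 45 reads, and 26.15% of the 50-base stretches of Cycs are shared with other genes, 10 pseudogenes among them, so that its true level is uncertain.

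In ATP synthase, 7 of 17 members were called higher in beta than in delta cells and 2 lower. Atp5a1, the alpha subunit of the catalytic head and the member with the highest mean, was at 256 and 279 RPKM in beta, 180 and 197 in transdifferentiated and 178 and 200 in delta cells. Beta cells were above both other groups, which overlapped, with a log2 fold change against delta cells of 0.50 ± 0.12 (SE, n = 2, limma adjusted p = 0.0105) that was -0.01 with equal summed RPKM. Atp5d, the delta subunit of the central stalk, was at 70.7 and 59.4, 36.0 and 39.8, and 42.6 and 43.6 RPKM, with a log2 fold change of 0.58 ± 0.12 (limma adjusted p = 0.0073). It was 0.07 (adjusted p = 0.7) with equal summed RPKM. Without the male delta library Atp5a1 and Atp5d had adjusted p = 0.0988 and 0.057. The 2 members called lower are not structural subunits and were counted here by their symbols alone. Atp5s, coupling factor B, was at 6.53 and 6.26 RPKM in beta, 10.5 and 11.2 in transdifferentiated and 12.7 and 11.0 in delta cells. Its log2 fold change was -0.79 ± 0.12 (limma adjusted p = 0.00147), the call held under all 14 alternatives, and the gene shares no 50-base stretch with another. Atp5sl, its paralogue, was at 5.08 and 4.94, 7.32 and 7.56, and 7.20 and 6.27 RPKM, with a log2 fold change of -0.36 ± 0.11 (limma adjusted p = 0.0308) that was 0.01 under the median of ratios and passed the test only when the male beta library was the one left out.

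**Figure D3:**
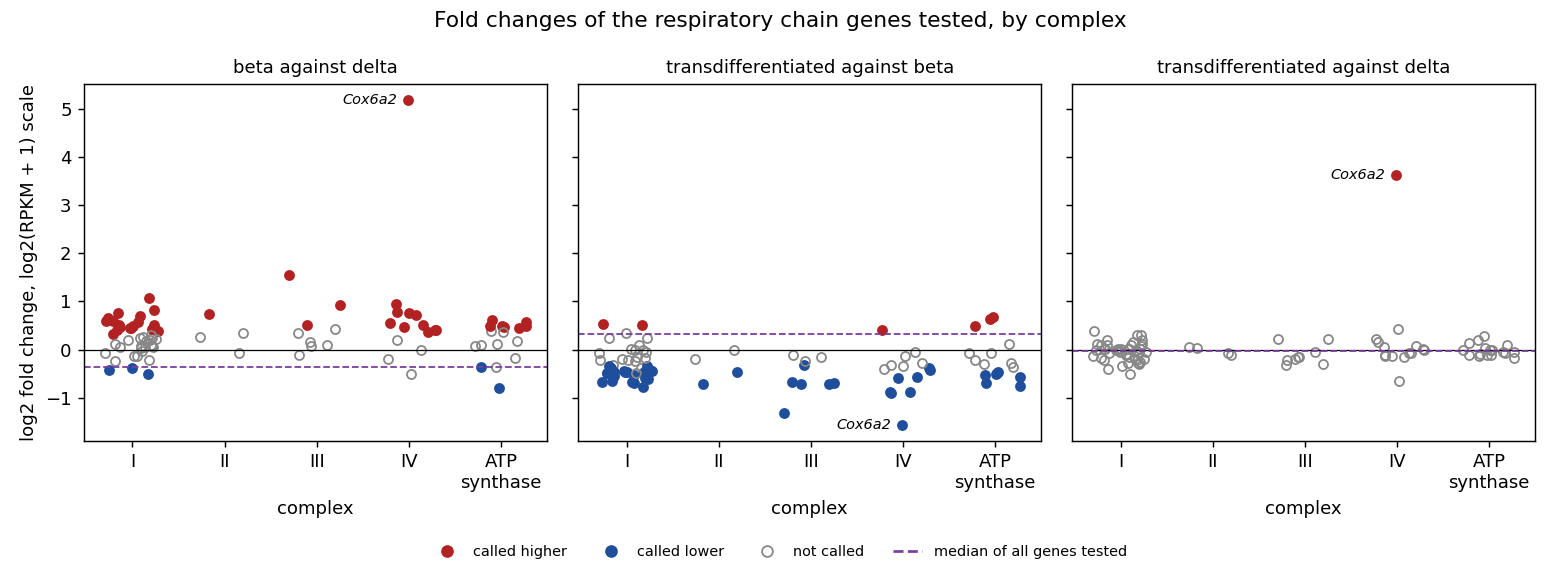
Each point is 1 of the 88 genes tested, placed by its complex, and the vertical axis is the log2 fold change on the log2(RPKM + 1) scale in each of 3 comparisons. Filled points were called (red higher, blue lower), open points were not, and the dashed line is the median of all genes tested; Cox6a2 lies at 5.19, -1.56 and 3.63, and is the 1 filled point in the comparison of transdifferentiated with delta cells.

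Transdifferentiated cells bear the delta lineage label and express insulin, and the question was how far their respiratory chain genes stand from those of beta cells. Of the 88 members tested, 46 were called lower in transdifferentiated than in beta cells (52.3%) and 6 higher (6.82%), against 8.46% and 42.5% of all genes tested. The median log2 fold change was -0.39 over the members and 0.32 over all genes. Here too the split depended on scaling: with equal summed RPKM, 12 members were called higher and 2 lower. Without either transdifferentiated library fewer members, and fewer of all genes, were called. The median log2 fold change was then -0.34 over the members and 0.31 over all genes without the male library. Without the female one it was -0.39 and 0.34. This comparison shares the 2 beta libraries with that of beta against delta cells, so the counts are not independent of each other. The lower members were 23 of 43 in complex I, 2 of 4 in complex II, 6 of 9 in complex III, 8 of 15 tested in complex IV and 7 of 17 in ATP synthase.

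Cox6a2 had the largest fall, with a log2 fold change of -1.56 ± 0.33 (SE, n = 2, limma adjusted p = 0.00791). Without the male transdifferentiated library it was -1.21 and did not pass the test (adjusted p = 0.0558). Within pools the transdifferentiated level was 26.6% (male) and 41.0% (female) of the beta level. Ins1 stood at 26.6% and 40.2% and Ins2 at 28.04% and 43.1% of their beta levels in the same pools. Other beta markers fell by more or less than this. The log2 fold change of transdifferentiated against beta cells was -2.11 in Mafa, -1.60 in Ucn3, -0.64 in G6pc2 and -0.50 in Slc2a2, which was not called. In delta cells Cox6a2 was at 0.801% and 2.42% of the beta level, against 0.450% and 0.738% for Ins1 and 0.462% and 0.808% for Ins2. These insulin genes were set beside Cox6a2 after its values were seen, and the part that beta cell RNA or beta cells among the sorted cells have in its level was not tested. Sst, the delta cell hormone, was at 12842 and 12933 RPKM in transdifferentiated cells, 25.8% and 22.1% of its delta level.

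The other members that fell most have their values in each library given above, and this comparison shares the beta libraries with that of beta against delta cells. Uqcrq fell by 1.32 on the log2 scale (SE 0.17, n = 2, limma adjusted p = 0.00142). It was the 1 named member of the chain called in this comparison under all 14 alternatives. Cox6a1 fell by 0.90 (SE 0.16, adjusted p = 0.00405), Cox5a by 0.89 (SE 0.15, adjusted p = 0.00327) and Cox8a by 0.87 (SE 0.16, adjusted p = 0.00471). Ndufb9 fell by 0.77 (SE 0.12, adjusted p = 0.00277) and Atp5d by 0.76 (SE 0.12, adjusted p = 0.0031). Each of these 5 lost its call with equal summed RPKM, where the log2 fold changes were -0.43, -0.43, -0.41, -0.31 and -0.30, and in no other alternative. Uqcr10, a small subunit of complex III, fell by 0.71 (SE 0.17, adjusted p = 0.0134), with adjusted p = 0.082 without the male transdifferentiated library and a log2 fold change of -0.25 with equal summed RPKM.

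The 6 members called higher in transdifferentiated than in beta cells were Atp5s (log2 fold change 0.68 ± 0.12, limma adjusted p = 0.00372), Atp5g2 (0.64 ± 0.17, adjusted p = 0.0177), Ndufaf4 (0.54 ± 0.11, adjusted p = 0.00827), Ndufab1 (0.50 ± 0.12, adjusted p = 0.0128), Atp5sl (0.49 ± 0.11, adjusted p = 0.0118) and Cox7c (0.41 ± 0.13, adjusted p = 0.0397). Atp5g2, a gene for the c ring of ATP synthase, was at 0.526 and 0.496 RPKM in beta, 1.52 and 1.20 in transdifferentiated and 1.20 and 0.723 in delta cells, on an estimated 17 to 34 reads. Cox7c, a small subunit of complex IV, was at 5.58 and 4.97, 6.63 and 8.11, and 6.46 and 5.81 RPKM. In both genes the transdifferentiated libraries were above the beta libraries. Their levels are uncertain, because 38.35% of the 50-base stretches of Atp5g2 and 22.11% of those of Cox7c occur in other genes, with 2 and 3 pseudogenes among them. Under the median of ratios Atp5g2 alone of these 6 kept its call, and without the male transdifferentiated library Atp5s alone did. Without the female transdifferentiated library 3 of them were called, and without the male or the female beta library 4 were. Cox7c lost its call whichever of the 6 libraries was left out.

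Transdifferentiated and delta cells differed in 1 member. Cox6a2 was called higher in transdifferentiated cells, with a log2 fold change of 3.63 ± 0.33 (SE, n = 2, limma adjusted p = 0.00152), and 0 members were called lower; over all genes tested 5.53% were called higher and 7.2% lower. Without adjustment, 7 members had p under 0.05, 4 higher and 3 lower, and limma was the one tool run. The median log2 fold change was -0.05 over the members and -0.03 over all genes. Cox6a2 was called in this comparison under all 14 alternatives. Ndufb11, an accessory subunit of complex I at 88.8 and 88.1 RPKM in transdifferentiated and 111 and 124 in delta cells, was not called with all libraries in the fit (log2 fold change -0.40 ± 0.12, adjusted p = 0.0903), and was called lower when the beta libraries, or either of them, were left out. It is named here after its values were seen. Values that miss the threshold with 2 libraries a group do not show that the 2 populations are alike.

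The scaling between libraries set how many members were called, and in the first 2 comparisons which way. With the median of ratios, which brings the median gene to about 0, 68 members were higher and 1 lower in beta against delta cells (27.8% and 29.7% of all genes), and 1 was higher and 71 lower in transdifferentiated against beta cells (27.8% and 26.1%). With equal summed RPKM the counts were 5 and 23 (4.12% and 67.6%), and 12 and 2 (63.2% and 1.22%). With equal summed RPKM after leaving out the 7 hormone genes they were 47 and 3 (14% and 40.9%), and 5 and 51 (38.6% and 10.2%). In transdifferentiated against delta cells Cox6a2 alone was called higher, and no member lower, under each of these 3 scalings, against 5.94% and 6.43%, 3.93% and 5.71%, and 5.54% and 6.24% of all genes called higher and lower. The place of the members relative to other genes moved less, as a scaling divides all genes of a library by the same factor. The fold changes of all genes then move by nearly the same amount. The order of the 2 medians under the 4 scalings was thus nearly fixed in advance and adds no support. In beta against delta cells their median log2 fold change was above that of all genes under all 4 scalings (0.33 against -0.36, 0.75 against -0.02, -0.17 against -0.76 and 0.42 against -0.29), and in transdifferentiated against beta cells below it (-0.39 against 0.32, -0.78 against -0.00, 0.05 against 0.68 and -0.45 against 0.27).

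**Figure D4:**
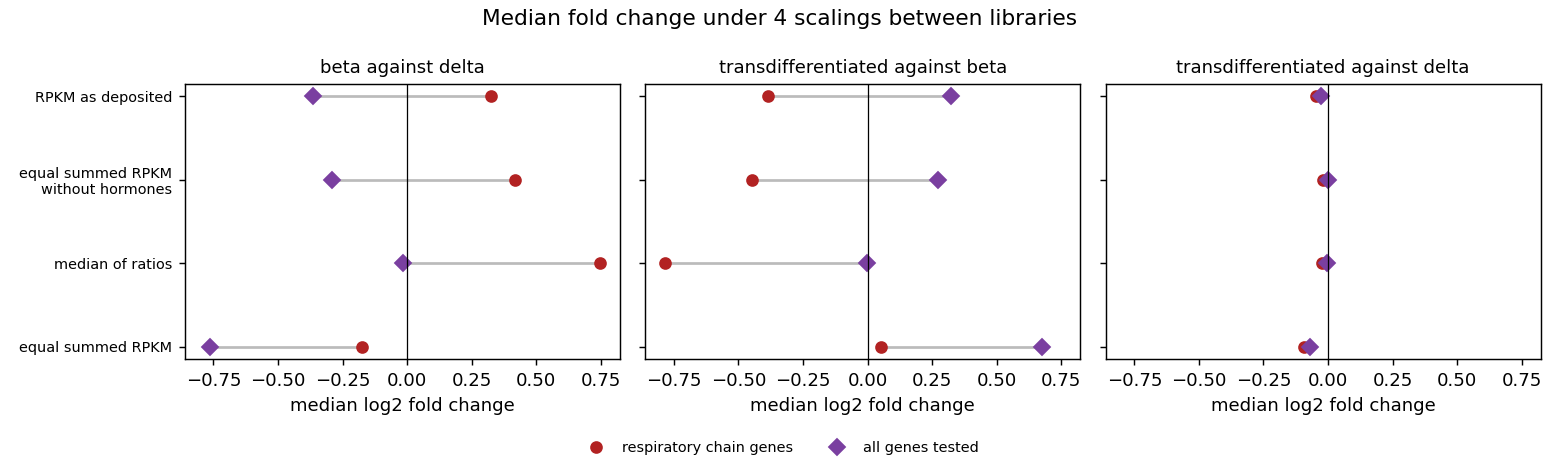
Each panel is 1 comparison and each line 1 way of scaling the libraries; the horizontal axis is the median log2 fold change of the 88 respiratory chain genes (circles) and of all 13022 genes tested (diamonds). In the first 2 comparisons the circles stay on one side of the diamonds, since each scaling moves all genes by nearly the same amount. In the third they nearly coincide.

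Short reads from sequence shared with another gene cannot be placed with certainty, so the members were split by it. Of the 35 tested members with no shared 50-base stretch, 17 were higher and 2 lower in beta against delta cells, and of the 52 with one, 23 were higher and 2 lower; 1 tested member had no match in the annotation. Among the genes described above, 15.6% of the stretches of Ndufb9, 9.16% of Cox6a1 and 9.11% of Cox5a were shared, with 0, 1 and 2 pseudogenes among the genes that share them. Members at 5 RPKM or more on average gave 37 higher and 4 lower of 80, and the 8 tested below that level 3 higher and 1 lower.

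Of the 13 subunits encoded in the mitochondrial genome, 7 were tested and 5 were listed at 0 in all libraries. In beta against delta cells 1 of the 7 was called higher and 0 lower. It was mt-Nd2, at 1144 and 1187 RPKM in beta, 1220 and 1373 in transdifferentiated and 942 and 893 in delta cells (log2 fold change 0.35, limma adjusted p = 0.0377), and its call was lost whichever of the 6 libraries was left out and its log2 fold change turned to -0.17 with equal summed RPKM. In transdifferentiated against beta cells 4 were called higher and 0 lower, where 42.5% and 8.46% of all genes were, led by mt-Nd5, at 849 and 958 RPKM in beta, 1377 and 1510 in transdifferentiated and 1001 and 940 in delta cells (log2 fold change 0.68, adjusted p = 0.00429). The median log2 fold change of the 7 was 0.36 there, against 0.32 for all genes and -0.39 for the nuclear members. Under the median of ratios, 0 of the 7 were called in that comparison. In transdifferentiated against delta cells 3 of 7 were higher and 0 lower (5.53% and 7.2% of all genes), and 1 was higher under the median of ratios. Of these 3, mt-Nd2 and mt-Nd5 lost the call whichever of the 4 transdifferentiated and delta libraries was left out.

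Of 12 regulators of mitochondrial biogenesis tested, 2 were called higher and 6 lower in beta against delta cells, which is near the 11.7% and 46.3% of all genes. Nrf1, named because its letters are shown above, was at 5.01 and 4.47 RPKM in beta, 4.25 and 3.93 in transdifferentiated and 2.99 and 3.002 in delta cells (log2 fold change 0.52, limma adjusted p = 0.00808). Its adjusted p was 0.0584 without the male and 0.0535 without the female delta library, and its log2 fold change was 0.11 (adjusted p = 0.535) with equal summed RPKM. Gabpa, an ETS factor that also binds promoters of the chain, was lower in beta cells at 3.92 and 4.74, against 11.3 and 9.10 in transdifferentiated and 12.2 and 10.8 in delta cells (log2 fold change -1.23, adjusted p = 0.000657). Perm1, a muscle regulator of oxidative genes, was at 0.618 and 0.677, 3.33 and 2.96, and 2.73 and 2.58 RPKM (log2 fold change -1.15, adjusted p = 0.000408). In transdifferentiated against beta cells 6 of the 12 were higher and 1 lower, near the 42.5% and 8.46% of all genes; Perm1 (1.33, adjusted p = 0.000441) and Gabpa (1.07, adjusted p = 0.00169) were among the 6, and Esrra, the estrogen-related receptor alpha, was the one that fell (-0.64, adjusted p = 0.00823, with adjusted p = 0.0578 without the male transdifferentiated library, and -0.22, adjusted p = 0.26, with equal summed RPKM). Against delta cells 0 of the 12 were called. Under the median of ratios the counts were 3 higher and 2 lower in beta against delta cells, and 3 higher and 2 lower in transdifferentiated against beta cells.

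The counts of the other gene groups of the pathway stand beside 11.7% of all genes called higher and 46.3% lower in beta against delta cells, and 42.5% and 8.46% in transdifferentiated against beta cells. Of 38 tested assembly factors of the complexes, 4 were higher and 5 lower in beta against delta cells; Uqcc2, an assembly factor of complex III, was higher (log2 fold change 0.97, limma adjusted p = 0.00185), and Sdhaf4, an assembly factor of complex II, was lower (-1.02, adjusted p = 0.00199). In transdifferentiated against beta cells 3 were higher, Cox17 among them (0.81, adjusted p = 0.0021), and 4 lower, Uqcc2 among them (-0.94, adjusted p = 0.00288). Of 13 genes of coenzyme Q synthesis 3 were higher and 2 lower in beta against delta cells, and 2 higher and 0 lower in transdifferentiated against beta cells. Of 14 genes for other routes of electron entry and carriers, 5 were higher and 2 lower in beta against delta cells. Gpd2, the mitochondrial glycerol phosphate dehydrogenase (1.12, adjusted p = 0.00434), and Vdac1, the main channel of the outer membrane (1.11, adjusted p = 0.00261), led those higher, and Ucp2, an uncoupling protein known for lowering insulin release, was lower (-0.64, adjusted p = 0.0144, and -0.22, adjusted p = 0.327, under the median of ratios). Ucp2 had adjusted p = 0.0531 without the male beta and 0.1 without the female delta library, and Gpd2 had 0.0596 with equal summed RPKM. In transdifferentiated against beta cells 2 of the 14 were higher and 2 lower. In transdifferentiated against delta cells 5.53% of all genes were called higher and 7.2% lower. Of the 14 there, 1 was called higher, Gpd2 (1.26, limma adjusted p = 0.012), and 0 lower. Of the 38 assembly factors 0 were higher and 1 lower, Sdhaf4 (-0.64, adjusted p = 0.0459). Gpd2 lost its call under 5 and Sdhaf4 under 9 of the 14 alternatives. Of the 13 genes of coenzyme Q synthesis 0 were called.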

How the data were processed

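RNA-seq libraries (TruSeq RNA v2) of 3 sorted populations, 2 pools each, were analysed from 1 deposited table of RPKM values. STAR 2.5, featureCounts, edgeR 3.14.0 and GRCm38.p4 are named in the submitters' processing notes, and the strand setting of the counting is not given there. RPKM divides the authors' counts by exon length and by the library's reads, so genes that take many reads lower the values of all others. From the table, 27 symbols turned into dates were left out. Values were compared as log2(RPKM + 1) with limma 3.58.1 (R 4.3.3, trend), with a filter of 1 RPKM in at least 2 libraries. The procedure was also run on simulated data, in which few genes changed and libraries of a pool did not vary together. That run was a check of the code and does not test the calls made here. Depth was estimated from the steps between low values: 83.3% to 86.4% of values under 50 reads were whole within 0.01 of a read, with exon lengths from GENCODE M21. The same islets gave the 3 populations, so pools pair the libraries; deviations from group means correlated at 0.47 (beta and transdifferentiated), 0.24 (beta and delta) and 0.36 (transdifferentiated and delta) over 13022 genes, and fits that block on the pool were run beside the main one.

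Genes were named by a rule: Cox6a2, the isoform sets, in each comparison the 8 called members of largest change in each direction, the member of highest mean in each complex, and up to 4 called genes of each other list. A gene that this rule names is not reported here. The gene family and the lists were chosen with earlier results of these data known, while the rule for members uses symbols alone. Alternatives were another pseudocount, no filter or 5 RPKM, the median of ratios, the block, only the groups compared, each library left out and 2 scalings to equal summed RPKM, the last 2 added after the data were seen.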

Additional observations from a re-analysis of the deposited data

Results flagged for a closer look

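Cox7a1, the muscle isoform of the Cox7a pair, moved in opposite directions in the male and the female pool between transdifferentiated and beta cells. The difference of log2(RPKM + 1) was 0.29 in the male pool and -0.57 in the female pool. These values rest on few reads, estimated at 45.6 and 17.6 in beta and 33.8 and 4.4 in transdifferentiated cells (male and female pool). With 1 library a group in each pool the difference between pools was not tested. Groups of 2 libraries are too small to look for single libraries that stand apart.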

How the results depend on the processing

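The number of calls changed when 1 library was left out, among the members and among all genes, and such a fit leaves 1 library in a group. In beta against delta cells the median log2 fold change was then 0.19 to 0.41 over the members and -0.42 to -0.31 over all genes. In beta against delta cells the members called higher numbered 13 to 46 when 1 library was left out (13 without the male and 21 without the female delta library, against 40), and those called lower 1 to 6. In transdifferentiated against beta cells 20 to 58 were lower (20 without the male and 30 without the female transdifferentiated library, against 46) and 1 to 5 higher, and of all genes 4132 to 7086 were called, against 6642. In transdifferentiated against delta cells 1 member was higher throughout, 0 to 1 lower, and 522 to 2055 genes were called, against 1657. Under the median of ratios the members called higher and lower were 68 and 1 in beta against delta cells and 1 and 71 in transdifferentiated against beta cells; with equal summed RPKM they were 5 and 23, and 12 and 2. Members called lower in beta against delta cells were 3 with only those 2 groups fitted (43.8% of all genes), against 5 (46.3%). They were 3 with equal summed RPKM without hormones (40.9% of all genes). With only the 2 groups fitted 1 member was lower in transdifferentiated against delta cells (9.23% of all genes). A filter at 5 RPKM left 4405 genes called in transdifferentiated against beta and 1063 in transdifferentiated against delta cells, with fewer genes tested. With the pool as a replicate block the members called higher and lower were 41 and 5, 6 and 43, and 1 and 0 in the 3 comparisons. Of all genes 12.7% and 47.9%, 44.1% and 9.78%, and 6.5% and 8.28% were called. The fit without the block shared 39 of its 40 members higher in beta than in delta cells. It shared 43 of its 46 members lower in transdifferentiated than in beta cells.

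With equal summed RPKM the median log2 fold change of the members went from 0.33 to -0.17 in beta against delta cells and from -0.39 to 0.05 in transdifferentiated against beta cells. Of the genes named here, calls whose log2 fold change changed sign were, in beta against delta cells, Atp5a1 at -0.0146, Atp5g3 at -0.0474, Cox4i1 at -0.0454, Cox6b1 at -0.100, Cox7b at -0.109, Ndufa4 at -0.146, mt-Nd2 at -0.170 and Esrra at -0.0644, beside Ndufb11, called at -0.447 (adjusted p = 0.0268) and not as deposited, and in transdifferentiated against beta cells, Cox6b1 at 0.0517 and Cox7b at 0.0735. Under the median of ratios Atp5sl at 0.00560 and Ndufs1 at 0.00524 were the called ones that did so in beta against delta cells, where the members with a negative value went from 18 to 5. Genes that were not called changed sign too, such as Sdhd with equal summed RPKM and Ndufa1 under the median of ratios. Of the 23 named members called in beta against delta cells, 5 were called under all 14 alternatives (Atp5s, Cox6a2, Cyc1, Ndufb9 and Uqcrq), and of the 21 called in transdifferentiated against beta cells 1 was (Uqcrq). The causes were not tested.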
